A study of Mus musculus with 4 samples.

Results

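The miR-181 family was followed in Sertoli cells, which nurse the germ cells inside the tubules of the testis, across androgen blockade and testosterone add-back. Its members were mmu-miR-181a, mmu-miR-181b, mmu-miR-181c and mmu-miR-181d, 4 of the 567 mouse miRNAs on the array, chosen by name and from their total signals and detection calls on all arrays. Because the choice rested on these same signals, every array value here is a description, and no test was run on it.

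RNA came from purified Sertoli cells of B6129 male mice aged 5 to 7 weeks, pooled from 5 to 7 mice per the labels (the study's legend for the arrays gives a single number within this range), and was hybridized to 4 Agilent miRNA arrays. Sham mice (labelled control, 1 array) received an empty Silastic implant under the skin and saline into the abdomen. Flut+Acy mice (labelled flutamide, 2 arrays) received flutamide by implant, to block the androgen receptor, and injected acyline at 20 mg/kg body weight, an antagonist of gonadotropin-releasing hormone. Flut+Acy+T mice (labelled Testosterone, 1 array) received flutamide and acyline in the same way, together with testosterone by implant. The sources used here do not say whether the 2 Flut+Acy arrays carried separate pools or the same RNA, so the gap between them may be technical, and Sham and Flut+Acy+T had no replicate. No miRNA was taken to define Sertoli cells, so the cell type could be checked only through lists of other cell types, given below beside the results.

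A miRNA guides a silencing complex to messenger RNAs, mainly by pairing of its seed, bases 2 to 8 from the 5′ end, with sites in the target. The miR-181 family is best known from lymphocytes, where miR-181a tunes how strongly developing T cells respond to antigen, and it is also abundant in brain. Members of 1 family share a seed and so a large part of their predicted targets, while their genes and the rest of their sequence differ. The mature sequences are shown because the members differ in a few bases only, which bears on what the array could tell apart. In RefSeq (GRCm38.p6), with the seed in capitals, they are:
mmu-miR-181a: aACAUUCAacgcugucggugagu
mmu-miR-181b: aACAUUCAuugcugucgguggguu
mmu-miR-181c: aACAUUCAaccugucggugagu
mmu-miR-181d: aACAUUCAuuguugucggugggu

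All 4 members carried the same seed, ACAUUCA, and among the 1679 mature mouse miRNA names in the RefSeq table no other had it. The array measured each member with 2 probes of 10 spots each, and the coordinates in the scanner files placed both probes of a member against its 3′ end. The same sequences, with the stretch of the longer probe in capitals, show which bases were read:
mmu-miR-181a: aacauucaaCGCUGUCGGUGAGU
mmu-miR-181b: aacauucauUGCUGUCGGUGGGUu
mmu-miR-181c: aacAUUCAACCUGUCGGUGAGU
mmu-miR-181d: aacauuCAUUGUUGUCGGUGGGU
The last base of mmu-miR-181b lies outside the stretch because the probe coordinates ended 1 base earlier than the RefSeq sequence, and it was left out of the following counts. By sequence the family fell into the pairs mmu-miR-181a with mmu-miR-181c and mmu-miR-181b with mmu-miR-181d. mmu-miR-181a and mmu-miR-181c were 1 base change apart and shared their last 12 bases. mmu-miR-181b and mmu-miR-181d were also 1 base change apart and shared their last 11 bases, and the stretches of both probes of each held 1 mismatch to the other. Members of different pairs were 3 to 5 base changes apart and shared their last 2 bases. In the probe stretches, however, mmu-miR-181a and mmu-miR-181b held only 1 mismatch to each other in the shorter and 2 in the longer. The stretches of mmu-miR-181a held the same 1 and 2 mismatches to mmu-miR-181c, and those of mmu-miR-181c held 4 and 5 to mmu-miR-181a. The other members of different pairs held 2 to 8. These mismatches were counted base by base from the 3′ end, without gaps. The change between mmu-miR-181a and mmu-miR-181c is 1 missing base, so counts that involve mmu-miR-181c can be lower with a gap. They do not measure how well the probes separate the members. Cross-reaction between members was not tested on these arrays.

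The genes pair the members differently. Mir181a-1 (GRCm38.p6, chr1:137966455-137966541) and Mir181b-1 (chr1:137966639-137966718) lie side by side on the plus strand of chromosome 1, with no other annotated gene over them. Second copies, Mir181a-2 (chr2:38852735-38852810) and Mir181b-2 (chr2:38853830-38853918), lie on the plus strand of chromosome 2 inside Nr6a1, which encodes a nuclear receptor of germ cells, and the non-coding RNA Nr6a1os. Both copies of a member give the same mature sequence, so the array could not tell them apart. Mir181c (chr8:84178873-84178961) and Mir181d (chr8:84178716-84178787) lie on the minus strand of chromosome 8, again with no other annotated gene over them. In the scanner files (mm9) the probe stretch of mmu-miR-181a is at chr1:139863054-139863067 and that of mmu-miR-181c at chr8:86702823-86702841.

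All 4 members were detected on Sham and on both Flut+Acy arrays, and only mmu-miR-181b and mmu-miR-181d were detected on Flut+Acy+T. The total signal below sums a miRNA's probes in linear scanner units, without normalization between arrays, and its error is the one the scanner software gave from the spots of that array. The total signal of mmu-miR-181a was 24.6 ± 3.25 on Sham, 57.7 ± 5.68 and 66.4 ± 6.89 on Flut+Acy 1 and 2, and 111 ± 124 on Flut+Acy+T. Both Flut+Acy values exceeded Sham by more than these errors, and the last value could not be told from 0. The total signal of mmu-miR-181b was 27.6 ± 3.39 on Sham, 34.4 ± 3.70 and 47.0 ± 5.21 with Flut+Acy, and 594 ± 134 with Flut+Acy+T. Here the first Flut+Acy array lay near Sham, the second above it, and the Flut+Acy+T array far above the others. The Sham value included bright spots of the longer probe, described with the probes below.

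For mmu-miR-181c the total signal was 55.9 ± 4.79 on Sham, 84.4 ± 6.69 and 77.3 ± 6.90 with Flut+Acy, and 30.3 ± 123 with Flut+Acy+T. Both Flut+Acy arrays were above Sham, and the value on Flut+Acy+T again did not differ from 0. For mmu-miR-181d it was 31.5 ± 3.45 on Sham, 27.4 ± 3.44 and 39.3 ± 4.85 with Flut+Acy, and 977 ± 144 with Flut+Acy+T. The Flut+Acy arrays lay on either side of Sham for this member alone. For mmu-miR-181b, too, the errors of Sham and of the first Flut+Acy array overlapped.

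**Figure D1:**
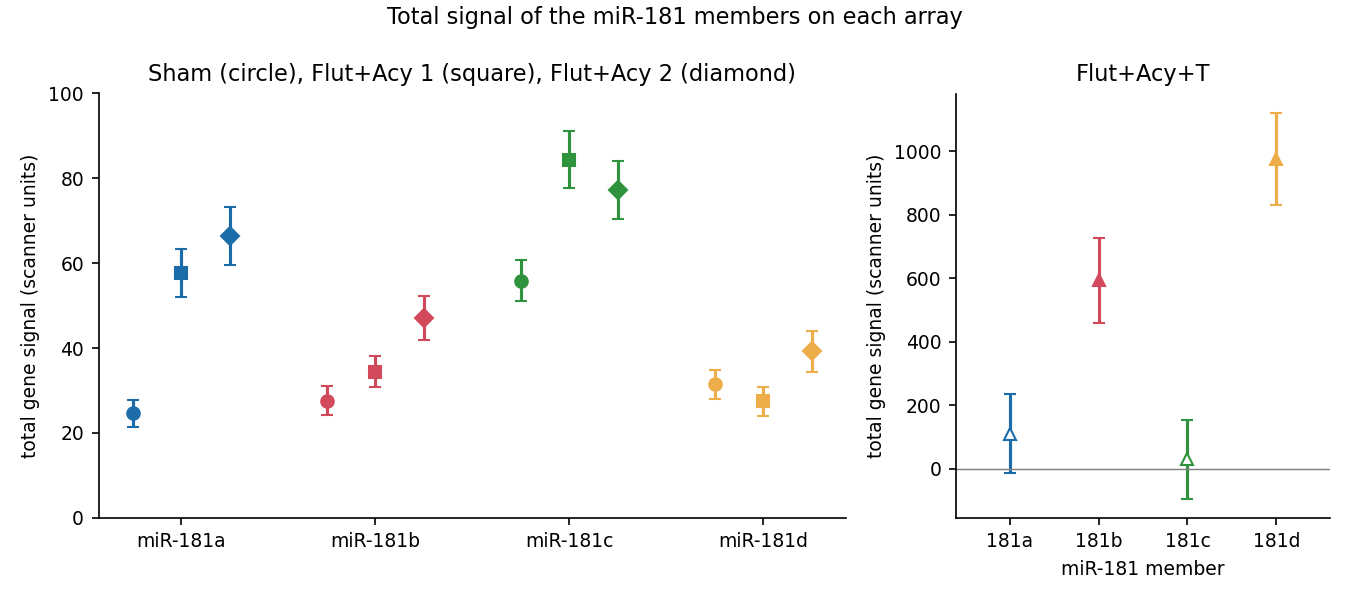
Total signal (scanner units, linear axes) of each miR-181 member on each array, with the error given by the scanner software as bars; filled points were detected and open points were not. The Flut+Acy+T array has its own axis because its values reach 977, while all members stay under 100 on the other arrays.

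The arrays differed in overall signal, so the members were next set against all miRNAs. Between Sham and Flut+Acy, the median over the 283 miRNAs detected on at least 1 of these 3 arrays was 1.76 higher in Flut+Acy on the log2 scale without normalization (values under 1 unit set to 1). All members were below that median, at log2 differences of 1.23 and 1.43 for mmu-miR-181a on the 2 arrays, 0.32 and 0.77 for mmu-miR-181b, 0.59 and 0.47 for mmu-miR-181c, and -0.20 and 0.32 for mmu-miR-181d. The errors of these differences, from the scanner errors of both arrays, were 0.17 to 0.24. The members' signals thus increased less than this median, or not at all, from Sham to Flut+Acy. The 283 include miRNAs detected on only some of these arrays, whereas all members were detected on all 3. Among the 189 miRNAs detected on all 3, mmu-miR-181a was in place 82 from the lowest unnormalized difference, near the middle. The other members were in places 3 to 23.

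Quantile normalization, which gives every array the same distribution of signals, removed most of that shift, and the median of all miRNAs became -0.18. After it every member was lower in Flut+Acy than in Sham. mmu-miR-181a had normalized log2 signals of 7.09 on Sham and 6.42 and 6.40 on Flut+Acy, a difference of -0.68. mmu-miR-181b had 7.20 on Sham and 5.89 and 5.99 on Flut+Acy, a difference of -1.26. mmu-miR-181c had 8.04 on Sham and 6.88 and 6.57 on Flut+Acy, a difference of -1.31. For mmu-miR-181d the values were 7.34, 5.57 and 5.78, a difference of -1.66. In each member both Flut+Acy arrays lay below Sham, and the gap between them (SD of 0.01 to 0.22 on the log2 scale, n = 2) was smaller than the difference from Sham. The Flut+Acy pair differed by a median of 0.07 over the 189 miRNAs that all 3 of these arrays detected.

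In Flut+Acy, 3 of the 4 members were at least 2-fold lower than in Sham, namely mmu-miR-181b (2.39-fold), mmu-miR-181c (2.48-fold) and mmu-miR-181d (3.17-fold), against 16.6% of the 283 miRNAs. mmu-miR-181a was 1.60-fold lower. None was at least 2-fold higher, against 22.6% of the 283. The median of the members was -1.28. Among these 189 miRNAs, ordered from the lowest difference, mmu-miR-181d was in place 8, mmu-miR-181c in place 21, mmu-miR-181b in place 25 and mmu-miR-181a in place 66. Without normalization between arrays the places were 3, 21, 23 and 82 in the same order of members. In RNA from pooled cells, fewer cells of a type and less RNA per cell cannot be told apart.

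The direction of these differences depended on the scaling. mmu-miR-181d had the lowest difference of the 4 members under all 11 alternatives, and mmu-miR-181a the highest under 10 of them, the exception being normexp background correction. These are not 11 separate checks of the order. No normalization and the 75th percentile scalings shift all members of an array alike, so they could not change it. The floor of 1 unit left the members' values as reported. Without normalization, and with each array's values floored, the log2 differences turned to 1.33 for mmu-miR-181a, 0.54 for mmu-miR-181b, 0.53 for mmu-miR-181c and 0.060 for mmu-miR-181d. With each array scaled to its 75th percentile over the miRNAs detected on all arrays, mmu-miR-181d alone was past 2-fold lower, against 13 of the 283 miRNAs. What needs no scaling is how much 2 members changed relative to each other on the same array. From Sham to Flut+Acy, mmu-miR-181a changed by 1.43 ± 0.34 more than mmu-miR-181d on the first Flut+Acy array and by 1.11 ± 0.34 more on the second (log2, error from the scanner), that is by 2.69-fold and 2.17-fold. It changed by 0.91 ± 0.33 and 0.67 ± 0.34 more than its chromosome 1 neighbour mmu-miR-181b, and by 0.64 ± 0.29 and 0.97 ± 0.30 more than mmu-miR-181c, its closest relative in sequence. The values for mmu-miR-181b depend on a Sham signal that held bright spots of 1 probe, given below. The chromosome 8 neighbours mmu-miR-181c and mmu-miR-181d differed by 0.79 ± 0.29 on the first array and by 0.15 ± 0.30 on the second, so their changes did not separate on both. mmu-miR-181b and mmu-miR-181c differed by less than, or about, the error on both arrays (-0.28 ± 0.29 and 0.30 ± 0.30). Both Flut+Acy arrays are set against the same Sham array, so the 2 values of each pair share its error and are not independent. Such differences also depend on the background correction. With normexp the difference from Sham was -0.13 for mmu-miR-181a and 0.19 for mmu-miR-181c, the reverse order.

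**Figure D2:**
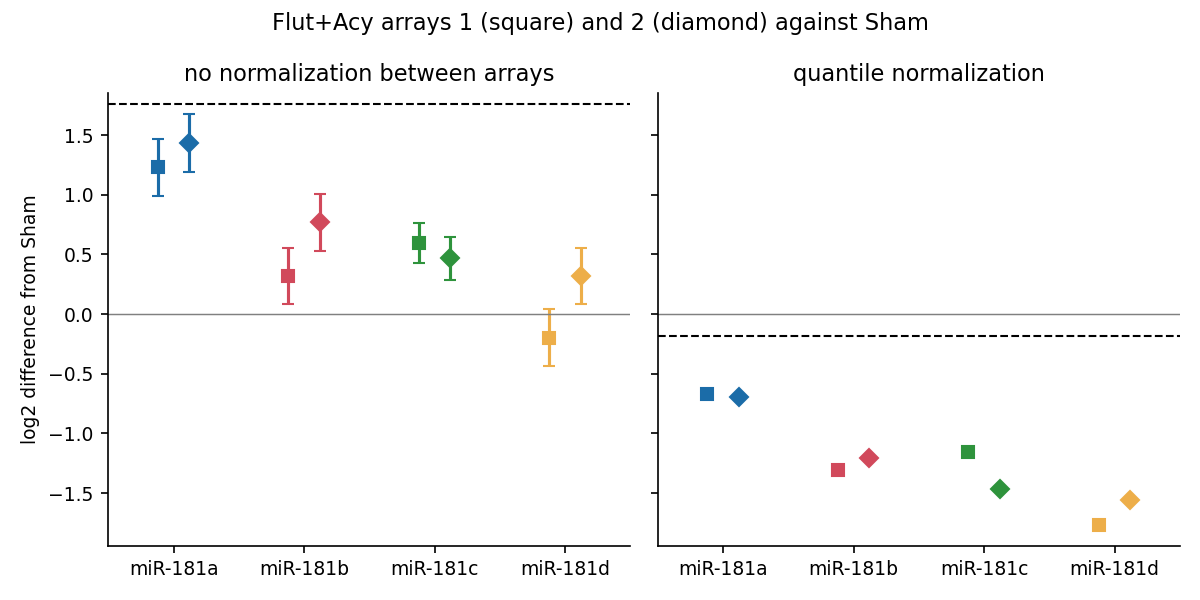
Log2 difference of each member from Sham on the 2 Flut+Acy arrays, without normalization between arrays (left, bars are the scanner error) and after quantile normalization (right); the dashed line is the median of the 283 miRNAs, at 1.76 and -0.18. Members lie below the dashed line in both panels, with mmu-miR-181a nearest to it, and all points but 1 are above 0 on the left while all are below 0 on the right.

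The probes of mmu-miR-181a, mmu-miR-181b and mmu-miR-181c that could be read gave unnormalized ratios of Flut+Acy to Sham above 1. The ratio was 2.40 and 2.73 on the 2 arrays by the longer probe of mmu-miR-181a. Its shorter probe had 0 of 10 spots well above background on Sham, at 4.09 ± 1.79 units, and 4 and 1 of 10 on Flut+Acy, at 8.53 ± 2.05 and 10.5 ± 2.94, so no ratio is given for it. The ratio was 1.40 and 2.05 by the shorter probe of mmu-miR-181b, which had 4 of 10 spots well above background on Sham, and 1.19 and 1.56 by the longer. On Sham the spots of this longer probe had a mean of 29.9 (SD 15.0), a median of 22.6 and a highest of 62.9 units. On Flut+Acy 1 and 2 its means were 35.6 and 46.0 and its medians 36.3 and 45.6. Bright spots on Sham thus lowered its ratios. For mmu-miR-181c the ratio was 1.56 and 1.28 by the shorter and 1.48 and 1.45 by the longer, with all spots well above background. For mmu-miR-181d the longer probe gave 1.02 and 1.24. Its shorter probe had signals of 10.8 ± 2.10 on Sham and 6.44 ± 1.97 and 13.7 ± 3.07 on Flut+Acy, with 6, 0 and 6 of 10 spots well above background, so the value below Sham on the first Flut+Acy array came from a probe near background.

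The lists of other cell types were read beside this comparison. In the sums below, undetected miRNAs are included and negative total signals count as 0. The germ cell list (mmu-miR-34b-5p, mmu-miR-34c and mmu-miR-449a, which the study also lists as androgen-responsive) was detected in full on Sham and both Flut+Acy arrays. Its summed total signal, unnormalized, was 475 on Sham, 7081 and 7333 with Flut+Acy and 2924 with Flut+Acy+T, where 2 of 3 were detected. Endothelial miRNAs summed to 649 on Sham, 1986 and 2155 with Flut+Acy (2 of 2 detected on each) and 4013 with Flut+Acy+T (1 detected). Those of smooth muscle and peritubular cells summed to 1785, 2581, 3094 and 4571 on the arrays in the same order, with 5, 5, 5 and 3 of 6 detected. Leukocyte miRNAs summed to 139, 279, 317 and 778, with 2, 5, 4 and 0 of 5 detected. The red blood cell list summed to 107, 134, 148 and 290, with 1, 2, 2 and 0 of 3 detected. After normalization the median log2 difference of Flut+Acy from Sham was 1.97 for the germ cell list, -0.16 for endothelium, -1.13 for smooth muscle and peritubular cells, -0.89 for leukocytes and -0.12 for red blood cells, beside -1.28 for the miR-181 members. From Flut+Acy to Flut+Acy+T these medians were -1.73, -1.35, -0.28, -0.46 and -0.02 in the same order. In Flut+Acy against Sham the germ cell list was thus higher and the smooth muscle and peritubular list about as low as the members. The part of such cells in the values of the miR-181 family was not tested.

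With testosterone add-back, 2 members were detected and 2 were not. The normalized log2 signal of mmu-miR-181b on the Flut+Acy+T array was 8.60, a difference of 2.66 from Flut+Acy. That of mmu-miR-181d was 9.55, a difference of 3.88. These 2 members made up the count at least 2-fold higher, against 17.5% of the 297 miRNAs detected on at least 1 of these arrays. Both signals lay within the range of that array's negative controls, described below, so the size of these differences is that of the measured signals only.

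The undetected members had measured values below Flut+Acy, at 5.37 for mmu-miR-181a (difference of -1.04) and 3.67 for mmu-miR-181c (difference of -3.05). By measured values, undetected miRNAs included, 50.8% of the 297 were at least 2-fold lower, so a lower value was the common outcome on this array, where 102 miRNAs were detected against 193 to 275 on the others. No fold is given for either member. The undetected partner strands mmu-miR-181a-1* and mmu-miR-181a-2* had normalized log2 signals of 7.28 and 7.12 there, above the Flut+Acy signals of both members, so a member at its Flut+Acy level could have gone undetected. The measured value of mmu-miR-181a was past 2-fold lower in 1 of the 10 alternatives and above Flut+Acy in 4 of them. The members' median difference of 0.81, against -1.11 for all miRNAs, joins detected and undetected members and stands for none of the 4.

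Against Sham, the same 2 members were higher on the Flut+Acy+T array, by 1.41 for mmu-miR-181b and 2.21 for mmu-miR-181d on the normalized log2 scale, and 17.9% of the 218 miRNAs detected on at least 1 of the 2 arrays were at least 2-fold higher. mmu-miR-181b was past 2-fold in 3 of 8 alternatives (range 0.45 to 4.43) and mmu-miR-181d in 8 of 8. The measured differences of the undetected members were -1.72 for mmu-miR-181a and -4.37 for mmu-miR-181c, with no fold given, and by measured values 44.5% of the 218 were at least 2-fold lower. Without normalization, the lowest total signal of a detected miRNA on this array was 238, above the Sham signal of either. After normalization the lowest was 6.69 (log2), below the Sham values of mmu-miR-181a (7.09) and mmu-miR-181c (8.04). The undetected partner strands stood at 7.28 and 7.12 there, above that Sham value of mmu-miR-181a and below that of mmu-miR-181c. Whether a member at its Sham level would have been detected thus depended on the scale. The median of the members was -0.16 and that of all miRNAs -0.54. The 3 comparisons share arrays, so they are not separate evidence.

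The 2 members detected on Flut+Acy+T, mmu-miR-181b and mmu-miR-181d, have the same last 11 bases and come from different gene clusters. The undetected members, mmu-miR-181a and mmu-miR-181c, have the same last 12 bases and are their neighbours in the genome. This is a description of 1 array and shows no pairing of the members. Over Sham and both Flut+Acy arrays, the root-mean-square distance between members on the centred normalized log2 scale was 0.17 to 0.47. It was 0.20 for mmu-miR-181b with mmu-miR-181d, 0.32 for mmu-miR-181a with mmu-miR-181c and, as the shortest, 0.17 for mmu-miR-181b with mmu-miR-181c. The distances of 0.17 and 0.20 are too close to rank. With the Flut+Acy+T array and its undetected values included, the sequence pairs had the shortest distances, 0.50 and 1.00, against 1.54 to 2.96 for the others.

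That array also had signal on probes that match no miRNA. On Sham and both Flut+Acy arrays the 672 negative-control spots had medians of 1.76, 1.91 and 4.05 units, and none of the 7 control sequences had a median above 7.45. At most 5 of the 672 reached the median spot of any member on those arrays. On Flut+Acy+T the control sequences had medians from -57.4 to 2992, and the upper quartile of all control spots was 1431. The median spot was 398 for mmu-miR-181b and 746 for mmu-miR-181d, and 40.2% and 31.4% of the control spots were at or above these, including the medians of 4 and 3 of the 7 control sequences. The signals of the detected members on Flut+Acy+T were thus within the range of the negative controls of that array. There 535 spots of 12493 were nonuniform, against 0 to 4 on the others, among them 4 of the 20 spots of mmu-miR-181b, 5 of mmu-miR-181d, 1 of mmu-miR-181c and none of mmu-miR-181a. The part of this background in the values of the members was not tested.

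**Figure D3:**
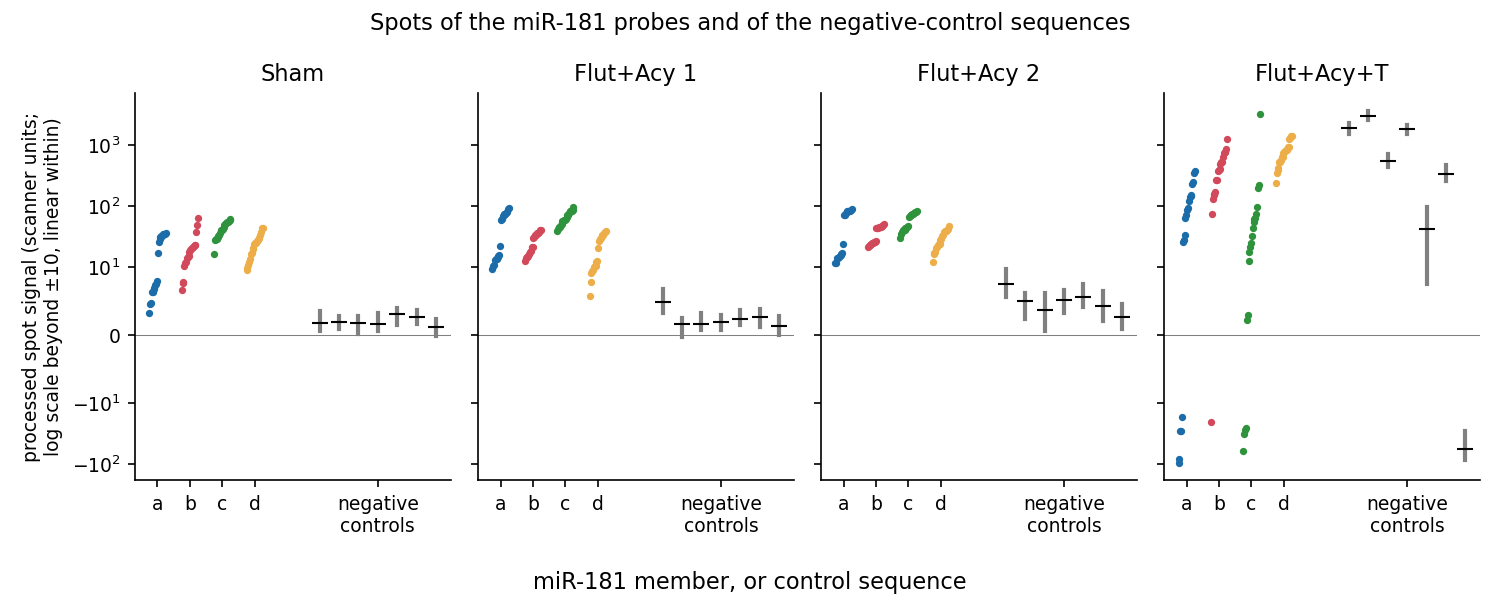
Processed signal of the 20 spots of each member (a to d, coloured points) and of the 7 negative-control sequences (black bar, median; grey line, quartiles) on each array, on an axis that is linear within 10 units of 0 and logarithmic beyond. On Sham and both Flut+Acy arrays the median spot of each member lies above the medians of the controls, though single spots on Sham and Flut+Acy 1 reach down to the control quartiles, and on Flut+Acy+T several control sequences lie above the median spot of mmu-miR-181d.

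The deposited normalized table gave the same directions for mmu-miR-181b, mmu-miR-181c and mmu-miR-181d, and for mmu-miR-181a it did so in Flut+Acy against Sham but not in the comparisons with Flut+Acy+T. Its values were 72.1 on Sham, 25.3 and 29.3 with Flut+Acy and 113 with Flut+Acy+T for mmu-miR-181b, 171, 58.8, 47.8 and 5.93 for mmu-miR-181c, and 93.8, 16.7, 23.6 and 318 for mmu-miR-181d. For mmu-miR-181a they were 7.17, 2.62, 3.82 and 25.7, which put it above Flut+Acy and Sham on the Flut+Acy+T array. Its value of 2.62 on Flut+Acy 1 was the same as that of mmu-miR-181a-1* there. The row of mmu-miR-181a did not stand where the scanner files put it. It was in place 216 of 567 on Sham against place 119 by total signal, and on the Flut+Acy arrays it was 134.5 and 109 places further down, and on Flut+Acy+T 80 places further up. On Sham, 15 of the 193 detected miRNAs were at least as far apart between the sources, where the median was 19 places, and the other members were 11 to 22 places apart. How the table combined probes is not stated in the sources used here.

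**Figure D4:**
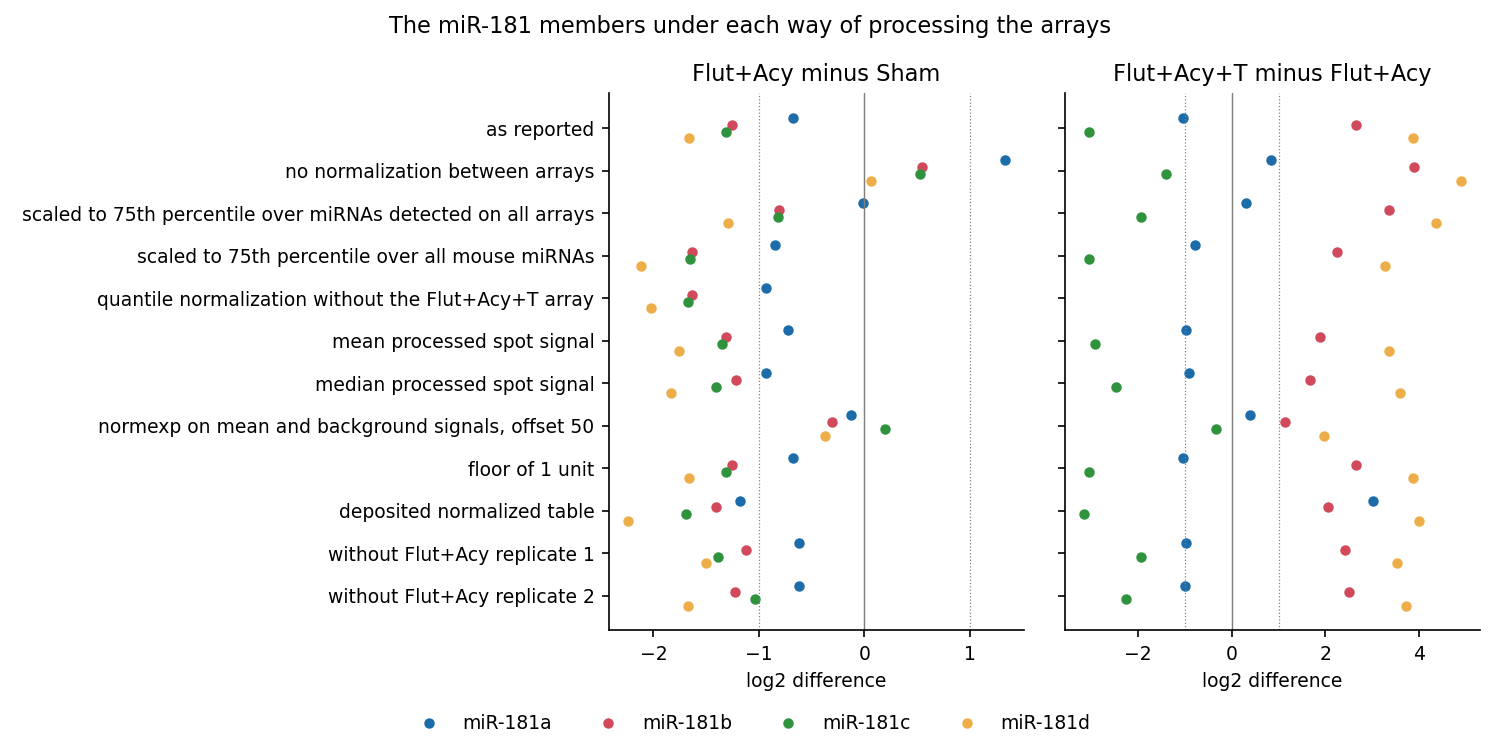
Log2 difference of each member in Flut+Acy against Sham (left) and in Flut+Acy+T against Flut+Acy (right) under the reported processing and each alternative; dotted lines mark 2-fold, and quantile normalization without the Flut+Acy+T array has no points on the right. mmu-miR-181b and mmu-miR-181d stay right of zero in every row on the right, while on the left all 4 members move across zero without normalization between arrays and mmu-miR-181c does with normexp.

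The partner strands, cut from the other arm of the hairpins and usually degraded, were not detected on any array. mmu-miR-181a-1* had total signals of 1.56 ± 2.47 on Sham, 2.39 ± 2.64 and 7.15 ± 3.91 with Flut+Acy and 332 ± 127 with Flut+Acy+T. mmu-miR-181a-2* had 0.468 ± 1.74, -1.15 ± 1.86, 2.10 ± 2.74 and 294 ± 88.7. Both stayed within 2 errors of 0 on the first 3 arrays, and the last array did not call them detected either.

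Within 100 kb of a member, by the coordinates in the scanner files, the array carried 5 miRNAs besides the members and partner strands. All were on chromosome 8 and 29659 bases or more from mmu-miR-181c. Those coordinates place mmu-miR-181a and mmu-miR-181b on chromosome 1 only, so the surroundings of their second copies on chromosome 2 were not searched. mmu-miR-23a, from a hairpin cluster with mmu-miR-27a, had total signals of 758 on Sham, 1405 and 1714 with Flut+Acy and 3062 with Flut+Acy+T. After normalization the log2 difference of Flut+Acy from Sham was -0.43 for mmu-miR-23a and -0.61 for mmu-miR-27a, and both were 0.58 higher with testosterone than in Flut+Acy. For mmu-miR-709, at 92739 bases, these differences were 0.30 and -0.56. mmu-miR-24-2* and mmu-miR-27a* were not detected. None of the 3 detected neighbours was past 2-fold in either comparison.

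Among the 76 miRNAs detected on all arrays, the 5 whose centred normalized profile was nearest to the mean profile of the members were mmu-miR-574-5p, mmu-miR-721, mmu-miR-27b, mmu-miR-130a and mmu-miR-23b. Their root-mean-square distances over the 4 arrays were 0.13 to 0.19 on the log2 scale. Their log2 differences were -0.90 to -0.75 for Flut+Acy minus Sham and 0.45 to 0.51 for testosterone add-back minus Flut+Acy. The mean profile averages members that went opposite ways on Flut+Acy+T, so this likeness holds for the average and not for any 1 member.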

How the data were processed

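The authors hybridized RNA of pooled Sertoli cells to 4 single-colour Agilent miRNA arrays. That these were on 1 slide and scanned together was assumed here and not checked. With 1 array for Flut+Acy+T, a difference of that array cannot be told apart from one of the treatment. They deposited Feature Extraction 9.5.3.1 output, with intensities on a linear scale, background-subtracted and not normalized between arrays. They also deposited a quantile-normalized table (MATLAB), whose values are intensities on a linear scale; it was used as an alternative only. The methods text names a whole-genome gene array, but the files are miRNA arrays. Groups were taken from the sample labels and named as in the study.

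Total gene signals of 567 mouse miRNAs were quantile-normalized over the 4 arrays in Python 3.11.15 (pandas 2.3.3), floored at 5.46 units (the lowest normalized signal of a detected miRNA on each array, as the median of the 4 arrays) and put on the log2 scale. Flut+Acy was the mean of its 2 arrays. Detection calls were used as deposited. The number of arrays limits the precision, and no p-value was computed. The normalization steps were tested on simulated data. The members, marker lists and rules were chosen with earlier results of these data known. Named were the members, their partner strands, miRNAs within 100 kb and the 5 nearest profiles.

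Alternatives were no normalization, 75th percentile scaling, quantile normalization without Flut+Acy+T, spot means or medians, normexp (limma 3.58.1, R 4.3.3, offset 50), a floor of 1 unit, the deposited table, other detection filters and leaving out each Flut+Acy array. Sequences and gene positions are from RefSeq (GRCm38.p6), where all 4 members matched.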

Additional observations from a re-analysis of the deposited data

How the results depend on the processing

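The median log2 difference of the members between Flut+Acy and Sham (-1.28) turned to 0.54 without normalization between arrays. It was -0.81 and -1.64 with arrays scaled at the 75th percentile of miRNAs that all arrays detected or of all mouse miRNAs, -1.65 without the Flut+Acy+T array, -0.22 with normexp and -1.55 in the deposited table. The count of members past 2-fold (3, all lower) became 1 without normalization, which was mmu-miR-181a as higher, 1 lower with the first scaling, 0 with normexp and 4 lower in the deposited table. For single members the sign turned without normalization for mmu-miR-181a (1.33), mmu-miR-181b (0.54), mmu-miR-181c (0.53) and mmu-miR-181d (0.060), and with normexp for mmu-miR-181c (0.19).

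From Flut+Acy to Flut+Acy+T the members' median (0.81) was 2.36 without normalization, 1.84 and 0.73 with the scalings, 0.45 and 0.37 with spot means and medians, 0.76 with normexp and 2.54 in the deposited table. The count past 2-fold (4 by measured values, undetected members included) stayed 4 only with a floor of 1 unit and in the deposited table. It was 2 with normexp and 3 in the others of the 10 alternatives. Of all 297 miRNAs, 52 were at least 2-fold higher and 151 lower as reported, and 34 and 49 with normexp. These numbers were 53 and 158 with the floor of 1 unit and 42 and 170 in the deposited table. In the others they were 47 to 76 and 110 to 173. mmu-miR-181a turned to 0.84 without normalization, 0.31 with the first scaling, 0.39 with normexp and 3.02 in the deposited table. Against Sham it turned to 2.17, 0.29, 0.26 and 1.84 in the same settings. In all 10 alternatives mmu-miR-181b (1.13 to 3.88) and mmu-miR-181d (1.97 to 4.90) were past 2-fold higher, and mmu-miR-181c was lower (-3.16 to -0.34). From Sham to Flut+Acy+T the median (-0.16) was 3.30 without normalization, 1.42 and -0.51 with the scalings, -0.57 and -0.70 with spot means and medians, 0.54 with normexp and 1.21 in the deposited table. The count (4) stayed 4 only with a floor of 1 unit, and was 1 with normexp and 3 in the others of the 8 alternatives. Of all 218 miRNAs, 39 were at least 2-fold higher and 97 lower as reported and with that floor, and 31 and 35 with normexp. In the others 35 to 156 were higher and 46 to 148 lower. mmu-miR-181b was past 2-fold in 3 of 8 alternatives there (0.45 to 4.43).

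Without each Flut+Acy array in turn, the medians ranged from -1.26 to -1.13 against Sham and from 0.72 to 0.75 for Flut+Acy+T against Flut+Acy. The share of all miRNAs past 2-fold either way was 23.6% with no filter on detection for Flut+Acy against Sham, and with detection on every array of both groups 34.9% for Flut+Acy+T against Flut+Acy and 23.4% against Sham. The cause of these shifts was not tested. The order of the members by level was planned and not run, since different probes cannot be compared in level. No paired analysis was possible because only Flut+Acy had more than 1 array.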
